A study of Homo sapiens with 24 samples.

Results

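Neuroendocrine and neuronal markers are 9 genes whose products build or regulate hormone-containing secretory granules and synaptic vesicles, or mark cells that carry them: CHGA, CHGB, SCG2, SCG3, SYP, SYT1, NCAM1, INSM1 and NEUROD1. They were taken by symbol from 60660 features, and each symbol belonged to 1 feature. RNA was measured in 24 libraries of PC3 and LNCaP, established human prostate cancer lines, which the series title and design describe as TRPM4-high lines used to study Acetalax, a compound whose activity was related there to the cation channel TRPM4.

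PC3 was grown in F-12 medium and LNCaP in RPMI-1640, both with 10% fetal bovine serum, so line and medium cannot be told apart. Parental cells were compared with chronic-exposure (CE) cells, which per the labels came from parental cells passaged in rising Acetalax until resistant and then kept 2 weeks without it. Each kind of cell was sampled untreated (control) and after 4 h in 10 µM Acetalax, so that there were 8 groups with 3 libraries each. The labels call the replicates biological but name no clone, pool or separate culture, so a p-value describes the spread among these libraries, which may come from a single CE derivative per line. In bulk RNA of this kind, more cells that express a gene and more RNA per cell cannot be told apart.

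As background, neuroendocrine cells store peptide hormones in dense-core granules and release them on a calcium signal. Granins (CHGA, CHGB, SCG2 and SCG3) are acidic proteins that help package that cargo, SYP is an abundant membrane protein of small vesicles, and SYT1 is a calcium sensor of vesicle fusion. NCAM1 is a neural adhesion protein, while INSM1 and NEUROD1 are transcription factors of neuroendocrine and neuronal differentiation. In prostate cancer these genes are used to recognise neuroendocrine differentiation, and many neuronal genes are silenced in epithelial cells by the repressor REST, which binds an element called RE1.

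Letters that match known motifs are shown for 2 members, CHGA and SCG3, which were called higher in CE cells (SCG3 in PC3, as it was not tested in LNCaP). The stretches come from RefSeq start-site windows on GRCh38.p14, which held 5 of the 9 members (CHGA, NEUROD1, SCG3, SYP and SYT1). Each is written 5′ to 3′ on the gene's strand, with the matched motifs in capitals.
CHGA: TGACGTCAtttccggggtcggggtaTATAA
SCG3: TTCAGCACCcacagggcGGACAGCGC
The CHGA stretch lies at chr14:92923096-92923125 on the plus strand, 54 to 25 bases before the RefSeq start. Its capitals are a cyclic AMP response element, TGACGTCA, and the TATA box letters TATAA. On either strand, 1.94% of 27305 windows of the same length held the first motif and 21.4% the second. The SCG3 stretch lies at chr15:51681511-51681536 on the plus strand, just inside the transcribed region. Its capitals are the left and right parts of RE1, TTCAGCACC and GGACAGCGC, present in 0.407% and 0.615% of windows, and both occurred on the same strand in 4 windows (0.0146%). NEUROD1 held TATAA as well, and no other match was found in these windows. A match describes the letters only, and whether a regulator binds there was not tested. The count of windows with both RE1 parts did not consider their order or spacing.

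Totals ranged from 40160832 to 57728014 expected counts per library. Across 21955 genes, the mean profile of PC3 CE controls correlated with that of LNCaP CE controls at r = 0.958, but with PC3 parental controls at 0.808, and LNCaP CE with LNCaP parental controls at 0.828. The CE libraries of the 2 lines were therefore more alike than either was to its labelled parent, and all CE results below hold for libraries so labelled. Summed TPM (a transcript level scaled for gene length and library size) of 10 markers of simple epithelium was 7132 to 8195 in PC3 parental and 26.8 to 28.9 in PC3 CE controls, and 1701 to 2138 against 8.96 to 11.5 in LNCaP. The sum over 10 luminal prostate markers was 5195 to 8228 TPM in LNCaP parental and 10.4 to 13.0 in LNCaP CE controls. In PC3 the luminal sums overlapped, at 53.8 to 55.2 TPM in parental and 39.6 to 60.4 in CE controls. Single luminal markers moved both ways there, with FOLH1 at means of 0.360 and 20.8 TPM and TMPRSS2 at 15.3 and 0.447. The 8 fibroblast markers summed to 31.6 to 39.5 TPM in PC3 parental and 2996 to 3003 in PC3 CE controls, and to 9.24 to 23.4 against 986 to 1047 in LNCaP. Most of the CE sum was COL1A2 and COL3A1, at means of 2112 and 849 TPM in PC3 CE and 276 and 456 in LNCaP CE controls. The markers did not all rise, as the COL1A1 mean was 33.4 TPM in PC3 parental and 11.2 in PC3 CE controls. In LNCaP it was 16.2 against 12.2. The epithelial and fibroblast sums thus differed between parental and CE controls in both lines, and the luminal sum in LNCaP only. These shifts accompanied every CE difference reported here, and their part in those differences was not tested. In stress genes, 3 libraries stood apart from their groups. LNCaP parental control 2 held 53.87 TPM of the hypoxia-responsive gene VEGFA against 512.52 and 572.99 in its replicates, and LNCaP parental Acetalax 3 held 76.25 against 746.10 and 606.19. PC3 CE Acetalax 1 held 935.65 TPM of the stress gene DDIT3 against 43.01 and 22.70.

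The first comparison asked how CE controls differed from parental controls. CHGA, CHGB, SYP and SCG2 rose in both lines, and SCG3 rose in PC3. In PC3, 5 of the 6 members that passed the low-count filter were higher and 0 lower, where 38.5% of all genes tested were called higher. In LNCaP, 4 of 4 were higher, where 36.0% of all genes tested were called higher. CHGA and CHGB in both lines, SCG3 in PC3 and SCG2 in LNCaP passed that filter only through the CE libraries, so they had to differ, and their adjusted p-values and these counts are a description of the genes that could be tested. NCAM1, INSM1 and NEUROD1 passed the filter in neither line, and SYT1 and SCG3 did not pass in LNCaP.

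**Figure D1:**
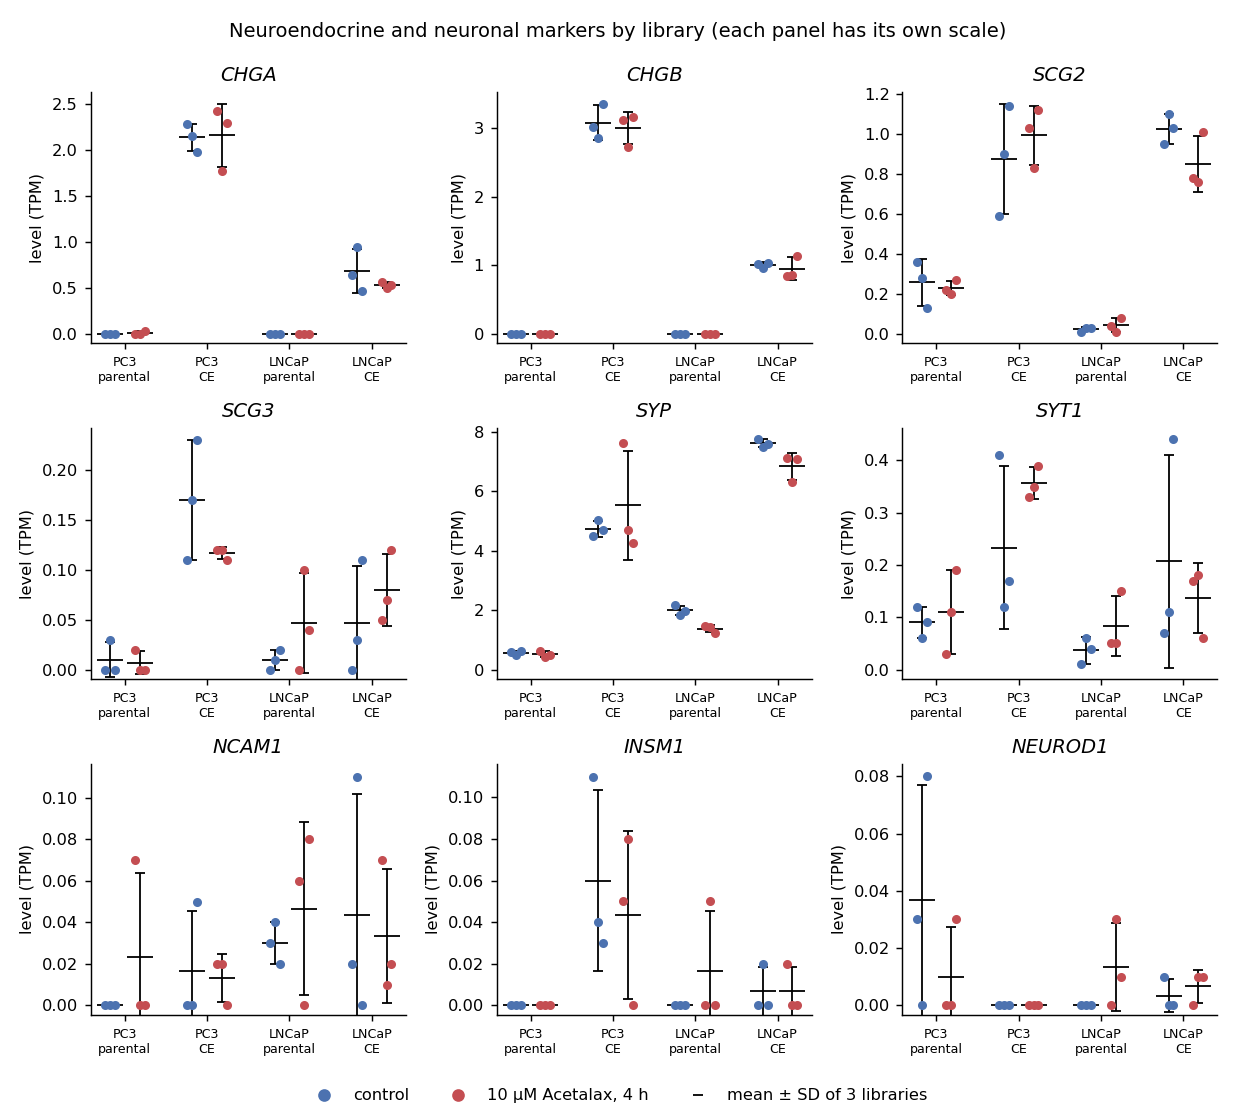
Level of each of the 9 markers in TPM (vertical axis, its own scale per panel) for parental and CE cells of each line. Points are single libraries, blue for controls and red for 10 µM Acetalax for 4 h, and bars are mean ± SD of 3 libraries. CHGA and CHGB lie at 0 in all control parental libraries, while SYP is the one marker above 1 TPM in a parental group.

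CHGA (ENSG00000100604.13, chr14:92923080-92935293 on the plus strand of GRCh38, as for all positions below), the granin measured clinically as chromogranin A, had 0 counts in each of the 6 parental control libraries. PC3 CE controls held 2.28, 2.15 and 1.98 TPM, from 109, 118 and 118 counts. LNCaP CE controls held 0.64, 0.94 and 0.47 TPM, from 28, 52 and 28 counts. No CE library overlapped a parental one. Against the 3 counts that a group at 0 allows, the level was at least 101-fold higher in PC3 (adjusted p = 2.44e-07) and at least 36.0-fold higher in LNCaP (adjusted p = 4.96e-05, edgeR's quasi-likelihood test with Benjamini-Hochberg adjustment over all genes, as for every adjusted p of a gene below).

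CHGB (ENSG00000089199.10, chr20:5911430-5925361, plus strand), the related chromogranin B, showed the same arrangement with more counts. All 6 parental control libraries were at 0, and PC3 CE controls held 3.02, 2.86 and 3.36 TPM. LNCaP CE controls held 1.02, 0.96 and 1.03 TPM. The increase was at least 194-fold in PC3 (adjusted p = 1.39e-07) and at least 68.0-fold in LNCaP (adjusted p = 3.73e-06). Even so, the CE means of 3.08 ± 0.255 TPM in PC3 and 1.00 ± 0.0379 TPM in LNCaP (SD, n = 3) rested on 199 to 253 and 60 to 72 counts per library.

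SCG2 (ENSG00000171951.5, chr2:223596940-223602503, minus strand), the precursor of secretoneurin, was already present at a low level in PC3 parental controls, at 0.36, 0.28 and 0.13 TPM. PC3 CE controls held 0.59, 0.90 and 1.14 TPM, all above the parental libraries, a log2 difference of 1.83 ± 0.36 (SE, adjusted p = 0.000621). In LNCaP the parental controls held 0.01, 0.03 and 0.03 TPM, from 1 to 3 counts each, and the CE controls 0.95, 1.10 and 1.03 TPM. The LNCaP log2 difference was 5.28 ± 0.37 (adjusted p = 1.99e-07), and the ratio of CPM, counts scaled to the library's total, was 36.3 with an exact 95% counting interval of 16.4 to 100. The CE controls of both lines thus reached overlapping levels from unequal parental ones.

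SCG3 (ENSG00000104112.9, chr15:51681353-51721031, plus strand), which binds CHGA inside granules, stayed under 0.3 TPM throughout. PC3 CE controls held 0.11, 0.17 and 0.23 TPM, from 10, 12 and 19 counts, and parental controls 0.00, 0.03 and 0.00. The libraries did not overlap, and the log2 difference was 3.92 ± 0.81 (adjusted p = 0.000855). With only 2 counts in the parental group, the ratio of 17.9 had an exact 95% counting interval of 4.66 to 153. LNCaP held 2 counts in the parental and 9 in the CE controls, a ratio of 4.50 with an interval of 0.931 to 42.8, and was not tested.

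SYP (ENSG00000102003.11, chrX:49187804-49200259, minus strand), synaptophysin, was the most abundant member in each of the 8 groups. PC3 parental controls held 0.58, 0.50 and 0.61 TPM and PC3 CE controls 4.49, 5.03 and 4.71. LNCaP parental controls held 2.16, 1.85 and 1.97 TPM and LNCaP CE controls 7.76, 7.50 and 7.58. Neither pair overlapped. The log2 difference was 2.89 ± 0.21 in PC3 (adjusted p = 1.52e-07) and 1.94 ± 0.12 in LNCaP (adjusted p = 7.74e-08). Ordered by control level, LNCaP CE was highest, then PC3 CE, LNCaP parental and PC3 parental, and no 2 neighbours in that order overlapped.

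SYT1 (ENSG00000067715.14, chr12:78863993-79452008, plus strand), the synaptotagmin of fast release, did not pass the test in PC3. Its PC3 levels were 0.12, 0.06 and 0.09 TPM in parental and 0.41, 0.12 and 0.17 TPM in CE controls, with a log2 difference of 0.82 ± 0.45 (adjusted p = 0.116). LNCaP held 13 counts in parental and 37 in CE controls, a ratio of 2.85 with an exact 95% counting interval of 1.48 to 5.83, and did not pass the low-count filter there. The 3 LNCaP CE controls ranged from 0.07 to 0.44 TPM and lay above the parental range of 0.01 to 0.06, but their counts of 9, 7 and 21 overlapped the parental ones of 1, 9 and 3. In 8 alternatives SYT1 was tested in LNCaP, and it was called higher in 5 of them, among them DESeq2 (log2 1.67, adjusted p = 0.0452) and edgeR without the 2 LNCaP libraries that stood apart (log2 2.62 ± 0.76, adjusted p = 0.00478). It was not called with no low-count filter (adjusted p = 0.0557), nor without LNCaP parental control 1 (0.0988) or 3 (0.0967), all from edgeR. Parental control 2, among the libraries that stood apart, held 9 of the 13 parental counts.

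NCAM1 (ENSG00000149294.17, chr11:112961247-113278436, plus strand), which encodes CD56, was near the limit of detection everywhere. Control groups held 0 counts in PC3 parental, 3 in PC3 CE, 8 in LNCaP parental and 6 in LNCaP CE, and its highest level in any library was 0.11 TPM. INSM1 (ENSG00000173404.5, chr20:20368121-20370949, plus strand) had 0 counts in both parental control groups, 15 in PC3 CE controls (9, 3 and 3) and 2 in LNCaP CE controls. Its PC3 level was at least 4.37-fold higher in CE controls, and with no low-count filter edgeR called it (adjusted p = 0.0257), while DESeq2 did not (0.0542). NEUROD1 (ENSG00000162992.4, chr2:181673088-181680876, minus strand) held 8 counts in PC3 parental controls (2, 0 and 6) and 0 in PC3 CE controls, with overlap. With no low-count filter edgeR did not call that difference (adjusted p = 0.0763). The LNCaP parental and CE controls held 0 and 1 counts of NEUROD1. For a gene at 0 counts, these depths allow up to 0.0234 CPM in PC3 parental and 0.0205 in PC3 CE controls, a limit that covers counting error only. None of these 3 genes passed the low-count filter, and a difference between most of these groups was not detectable at this depth.

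**Figure D2:**
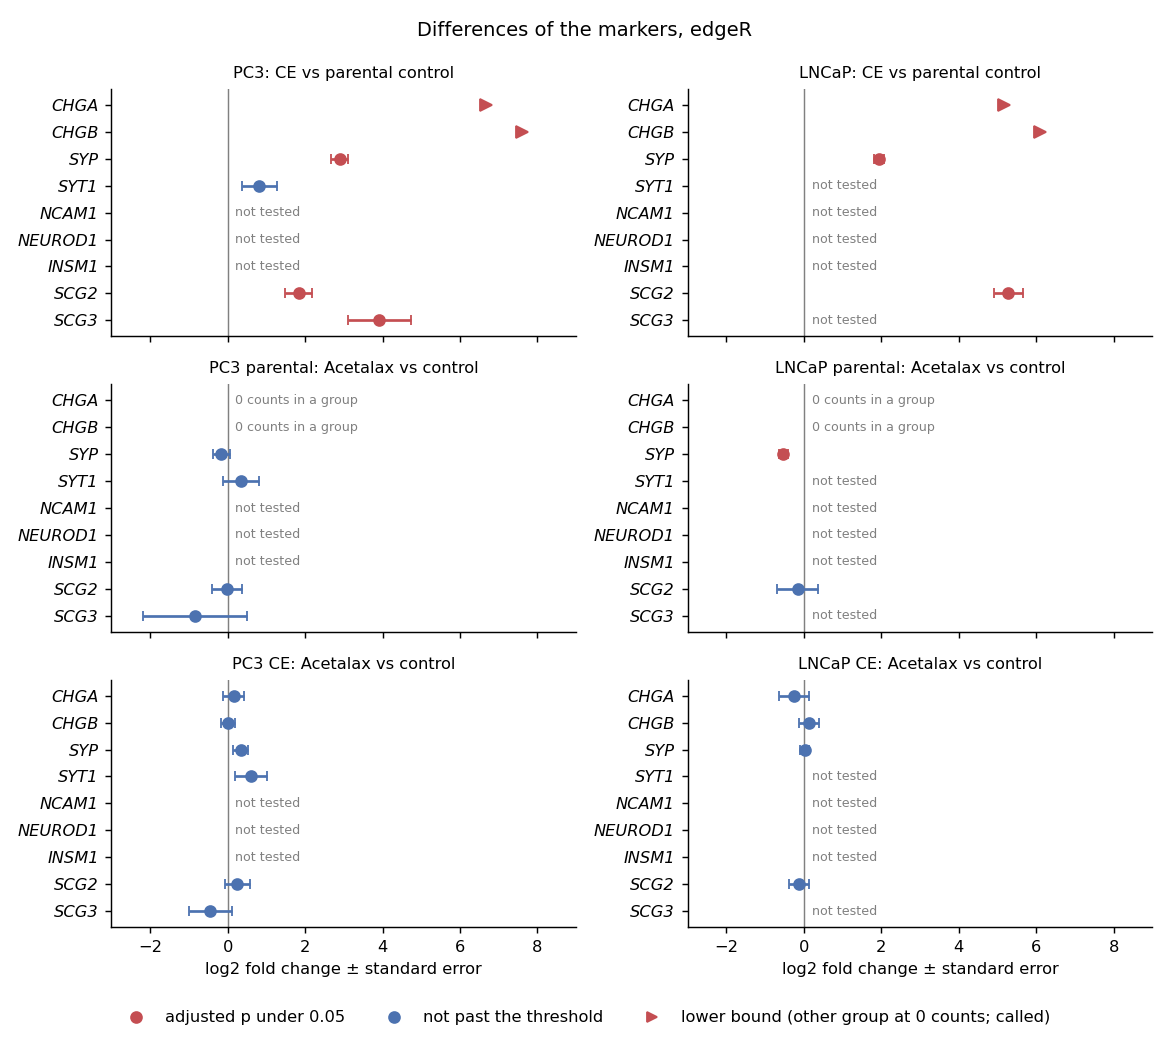
Log2 fold change ± standard error (horizontal axis) of the 9 markers in 6 comparisons, from edgeR. Red marks an adjusted p under 0.05, blue a gene not past it, and triangles a lower bound where the other group held 0 counts. The red points sit in the CE panels at the top, apart from SYP at -0.53 in LNCaP parental cells with Acetalax.

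The second question was how 4 h of Acetalax changed these genes. In PC3 parental cells 0 of 6 tested members were called, where 7.80% of all genes were, but CHGA, CHGB and SCG3 held at most 2 counts per group there and could hardly have been called. In PC3 CE cells 0 of 6 were called, where 8.15% of all genes were, and in LNCaP CE cells 0 of 4, where 7.40% were. In these 3 comparisons edgeR also gave 0 members at an unadjusted p under 0.05, and DESeq2 and limma called 0. CHGA stayed at 0 to 0.03 TPM and CHGB at 0 in all parental libraries with Acetalax. In PC3 CE cells CHGB was 3.08 ± 0.255 TPM without and 3.00 ± 0.238 TPM with Acetalax (SD, n = 3), a log2 difference of 0.01 ± 0.18. CHGA there was 2.14 ± 0.150 and 2.16 ± 0.344 TPM, a log2 difference of 0.16 ± 0.27. SCG2 in PC3 CE cells was 0.59, 0.90 and 1.14 TPM without and 1.03, 0.83 and 1.12 TPM with Acetalax, and in LNCaP CE cells 0.95, 1.10 and 1.03 against 0.78, 0.76 and 1.01 TPM, with overlap in both lines. For SYT1, PC3 CE cells held 49 counts without and 78 with Acetalax, a log2 difference of 0.61 ± 0.41 (adjusted p = 0.35). SCG3 in LNCaP parental cells, which was not tested, went from 2 to 10 counts, a ratio of 5.11 with an exact 95% counting interval of 1.09 to 48.0, and its libraries overlapped. NCAM1, INSM1 and NEUROD1 held at most 12 counts in any Acetalax group.

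SYP was the one member called for Acetalax, in LNCaP parental cells, where 1 of 4 tested was lower and 4.41% of all genes were called lower. Of those 4, CHGA and CHGB had 0 counts in every library compared and could not be called. SCG2 held 6 counts in these controls and 5 with Acetalax, and could hardly have been called. Controls held 2.16, 1.85 and 1.97 TPM and Acetalax libraries 1.46, 1.44 and 1.24, with no overlap. The log2 difference was -0.53 ± 0.12 (adjusted p = 0.0221). The call was lost without control 1 (adjusted p = 0.0761), without Acetalax 1 (0.0833) or 2 (0.0544), and when the fit held only the 6 libraries compared (0.295), and in all it was lost in 6 of 14 alternatives. It held, at -0.55 with an adjusted p of 0.0133, without the 2 LNCaP libraries that stood apart. In PC3 parental cells SYP was 0.563 ± 0.0569 and 0.513 ± 0.0971 TPM (SD, n = 3), a log2 difference of -0.16 ± 0.23.

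In PC3 CE cells with Acetalax, SYP was 7.64 TPM in the library that stood apart and 4.69 and 4.26 TPM in the others, beside 4.49 to 5.03 in controls. Its log2 difference was 0.34 ± 0.19 (adjusted p = 0.263), and 0.12 ± 0.14 (adjusted p = 0.626) without that library. The same library held 278.43 TPM of ENO2, a glycolytic enzyme of neurons, and 61.98 TPM of the granule protein VGF, against 36.73 and 29.09 and against 18.46 and 16.44 TPM in its replicates. In LNCaP CE cells the SYP levels with Acetalax, 7.13, 6.31 and 7.08 TPM, lay below the controls, but the log2 difference of scaled counts was 0.02 ± 0.12 (adjusted p = 0.998).

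The Acetalax responses of CE and parental cells were then compared directly. In PC3, 0 of 6 members had a response that differed, where 8.03% of all genes did, and edgeR gave 0 at an unadjusted p under 0.05. In LNCaP, 0 of 4 were called, where 1.28% of all genes were, and 1, SYP, had an unadjusted p under 0.05. DESeq2 and limma called 0 in both lines. CHGA and CHGB in both lines, SCG3 in PC3 and SCG2 in LNCaP had too few parental counts for their responses to be compared. The SCG2 counts in LNCaP parental cells were 6 without and 5 with Acetalax. That leaves SYP, SYT1 and SCG2 in PC3 and SYP in LNCaP. The SYP response in LNCaP differed by 0.55 ± 0.17 (log2, adjusted p = 0.168), which passed the threshold, at 0.58 with an adjusted p of 0.0346, once the 2 LNCaP libraries that stood apart were left out.

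Levels of the members were then compared between the lines. Between parental controls 2 of 6 tested members were called, where 70.3% of all genes were. CHGA and CHGB, at 0 counts in both groups, could not be called, and SCG3 held 2 counts in each. SYP was 1.80 ± 0.18 higher on the log2 scale in LNCaP (adjusted p = 1.66e-08) and SCG2 was lower (log2 -3.06 ± 0.46, adjusted p = 5.73e-06). SYT1 was at 24 counts in PC3 and 13 in LNCaP parental controls (log2 -1.12 ± 0.59, adjusted p = 0.0975). It passed the threshold, at -2.09 with an adjusted p of 0.0118, without LNCaP parental control 2. That library held 9 of the 13 LNCaP counts.

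Between CE controls 3 of 6 tested members were called, where 41.0% of all genes were. CHGA was lower in LNCaP CE than in PC3 CE controls (log2 -1.53 ± 0.34, adjusted p = 0.00204), as was CHGB (log2 -1.57 ± 0.22, adjusted p = 9.13e-05). SYP was higher in LNCaP CE controls (log2 0.82 ± 0.16, adjusted p = 0.000286). SCG2 levels overlapped (log2 0.35 ± 0.30, adjusted p = 0.377). SCG3 was at 41 counts in PC3 CE and 9 in LNCaP CE controls, with a log2 difference of -2.02 ± 0.85 (adjusted p = 0.0634). That difference passed the threshold in 5 of 13 alternatives: without LNCaP CE control 3 (-2.91, adjusted p = 0.045), without the 3 libraries that stood apart (0.0395), with the replicate block (0.0159) and with limma on log2(TPM + 1) or log2(TPM + 0.1) (0.0099 and 0.00754).

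The size of the CE difference itself was compared between the lines, and 2 of 6 tested members were called, where 56.8% of all genes were. The SCG2 difference was 3.42 ± 0.56 larger in LNCaP on the log2 scale (adjusted p = 2.26e-05). In LNCaP it rested on 6 counts in parental controls. Between the lines, SCG2 differed in parental controls (log2 -3.06) but did not pass the threshold in CE controls (log2 0.35). The SYP difference was smaller in LNCaP (log2 -0.98 ± 0.24, adjusted p = 0.00132). For CHGA and CHGB both parental groups were at 0, so no such difference can be read from their fits.

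Genes around these markers were followed with 6 lists, whose counts refer to genes that passed the filter, beside 38.5% of all genes called higher and 39.0% lower in PC3 CE against parental controls, and 36.0% and 39.3% in LNCaP. The median log2 difference over all genes was -0.01 in PC3 and -0.06 in LNCaP. As for the markers, a gene silent in parental cells passed the filter only where CE libraries held it, so a list's counts are a description. List medians were the same to 2 decimals with genes at 0 set to their bound.

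**Figure D3:**
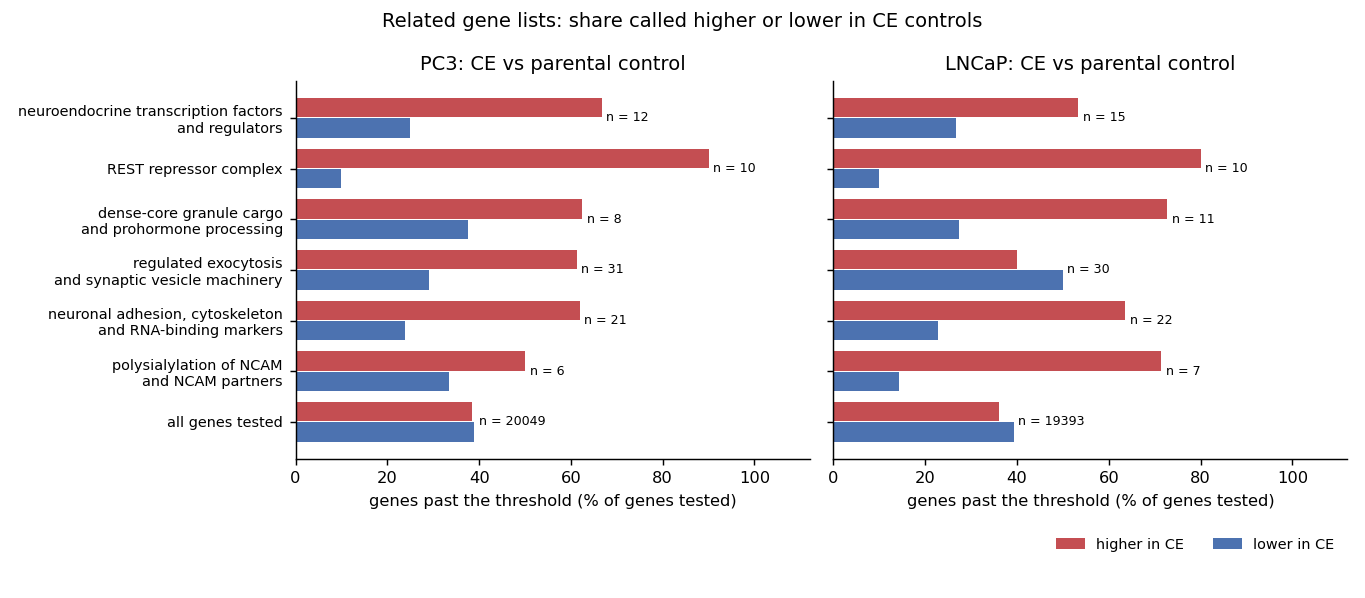
Share of tested genes called higher (red) or lower (blue) in CE than in parental controls (horizontal axis, percent of genes tested) for 6 related lists and for all genes, in PC3 (left) and LNCaP (right), with the number tested beside each pair of bars. In 5 lists the share called higher is the larger in both lines, and the exocytosis list has 19 of 31 higher in PC3 but 12 of 30 in LNCaP.

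Among 25 neuroendocrine transcription factors and regulators, 8 of 12 tested rose and 3 fell in PC3 (median log2 1.65), and 8 of 15 rose and 4 fell in LNCaP (3.70). The lines differed in which were abundant. NKX2-1, a lung and thyroid factor, was at 57.44, 57.88 and 56.81 TPM in PC3 CE controls and at 0 in the parental ones, while LNCaP CE controls held 0.18 to 0.32 TPM. ISL1, a factor of motor neurons and endocrine cells, was at 72.11 to 73.22 TPM in PC3 CE controls and 1.60 to 2.51 in LNCaP CE controls. SOX2, a stem cell and neural factor, was at 8.98 to 10.71 TPM in LNCaP CE controls and at most 0.11 in PC3 CE controls. POU2F3 and ONECUT2 fell in both lines, and the neuronal splicing factor SRRM4 was at 0.01 TPM or less in every control library.

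In the REST repressor complex, 9 of 10 genes rose in PC3 (median log2 1.19) and 8 of 10 in LNCaP (0.66). REST itself was 10.19, 10.96 and 10.40 TPM in PC3 parental and 20.96, 20.40 and 19.85 TPM in PC3 CE controls (log2 0.80 ± 0.08, adjusted p = 1.36e-06). LNCaP held 15.04, 11.69 and 17.28 TPM in parental and 17.30, 19.22 and 17.27 TPM in CE controls, with overlap (log2 0.32 ± 0.10, adjusted p = 0.0101). That call was lost in 3 of 14 alternatives, limma on TPM (adjusted p of 0.0904 and 0.0935) and edgeR on only the libraries compared (0.0508). RCOR2, a partner of REST, rose from 5.75 to 7.95 TPM to 46.27 to 50.33 in PC3 and from 0.91 to 1.80 to 66.82 to 70.99 in LNCaP.

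REST also changed with Acetalax in parental cells. It fell to 7.26, 7.54 and 8.13 TPM in PC3 parental cells (log2 -0.45 ± 0.08, adjusted p = 0.00491) and to 12.11, 11.45 and 8.75 TPM in LNCaP parental cells (log2 -0.38 ± 0.10, adjusted p = 0.0351). The LNCaP call was lost in 10 of 14 alternatives, among them RLE scaling (adjusted p = 0.0666), limma (0.108 and 0.116) and only the libraries compared (0.297). It was kept without the 2 libraries that stood apart (log2 -0.36, adjusted p = 9.16e-05) and lost without control 1 (adjusted p = 0.112) or 3 (0.106) and without Acetalax 2 (0.0815) or 3 (0.0721). In CE cells REST did not pass the test, at 0.23 ± 0.08 (adjusted p = 0.0799) in PC3 and 0.28 ± 0.10 (adjusted p = 0.113) in LNCaP. The response in CE minus parental cells was 0.68 ± 0.11 in PC3 (adjusted p = 0.00406) and 0.66 ± 0.14 in LNCaP (adjusted p = 0.0471), the latter lost in 15 of its 19 alternatives.

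Of 19 granule cargo and prohormone processing genes, 5 of 8 tested rose and 3 fell in PC3 (median log2 1.70), and 8 of 11 rose and 3 fell in LNCaP (2.94). NTS, the neurotensin precursor, was at 0.23 to 0.66 TPM in PC3 parental and 18.27 to 20.23 in PC3 CE controls, and at 0.10 to 0.31 against 241.86 to 257.97 TPM in LNCaP. VGF was at 2.00 to 2.67 against 15.22 to 17.21 TPM in PC3 and 2.36 to 3.43 against 92.94 to 102.25 TPM in LNCaP. The prohormone convertase PCSK1 was at 0.05 TPM or less in every control library, and CPE, which trims prohormones, rose in PC3 from 2.69 to 3.14 TPM to 31.83 to 34.31 and fell in LNCaP from 37.62 to 46.24 TPM to 9.09 to 10.43. SCG5, a chaperone of another convertase, was 29.41 to 36.40 TPM in PC3 parental and 0.04 to 0.40 in PC3 CE controls. The neuropeptide gene GAL fell in both lines.

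Of 37 genes of regulated exocytosis and synaptic vesicles, 19 of 31 tested rose and 9 fell in PC3 (median log2 1.17), whereas 12 of 30 rose and 15 fell in LNCaP (-0.50). UNC13A, which primes vesicles, was at 0.05 to 0.17 TPM in PC3 parental and 18.05 to 19.50 in PC3 CE controls, and at 0.05 to 0.15 against 45.90 to 51.31 TPM in LNCaP. SYT5 also rose in both lines. SYT7, a synaptotagmin of lysosome and granule release, fell from 27.64 to 33.03 TPM to 0.82 to 1.09 in PC3 and from 25.95 to 52.43 to 0.44 to 0.62 in LNCaP, and RAB27B, a granule-docking GTPase, fell in both. SYT4 was at 64.25 to 72.12 TPM in LNCaP parental and 1.08 to 1.29 in LNCaP CE controls.

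Of 29 neuronal adhesion, cytoskeletal and RNA-binding markers, 13 of 21 tested rose and 5 fell in PC3 (median log2 2.01), and 14 of 22 rose and 5 fell in LNCaP (3.79). UCHL1, a neuronal deubiquitinase also called PGP9.5, was at 0 to 0.05 TPM in PC3 parental and 572.62 to 594.11 in PC3 CE controls, and at 0.97 to 1.37 against 376.91 to 379.91 TPM in LNCaP. INA, a neurofilament protein, was at 38.84 to 42.27 TPM in PC3 CE and 3.74 to 4.42 in LNCaP CE controls, and at most 0.05 in parental controls. NEFL, the light neurofilament, was at 564.40 to 593.73 TPM in LNCaP CE controls but fell in PC3. ENO2 did not pass the test in PC3 (log2 -0.18 ± 0.65, adjusted p = 0.808) and was lower in LNCaP CE controls (log2 -2.25 ± 0.83, adjusted p = 0.0293). LNCaP parental control 2 held 16.14 TPM of ENO2 against 174.15 and 197.95 in its replicates, and the ENO2 call was lost without control 1 (adjusted p = 0.0812), without control 3 (0.0887), and without any 1 of the CE controls (0.0664 to 0.08), and kept without the 2 libraries that stood apart (log2 -2.80). NCAM2, a paralog of NCAM1, was at 176.48 to 310.15 TPM in LNCaP parental and 19.57 to 29.10 in LNCaP CE controls, and rose in PC3 to 2.48 to 3.47.

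Among 7 genes of NCAM polysialylation and signalling, 3 of 6 tested rose and 2 fell in PC3 (median log2 0.31), and 5 of 7 rose and 1 fell in LNCaP (2.08). Those 5 include FYN (log2 1.33, adjusted p = 0.0474), whose call was lost in 10 of 14 alternatives. FGFR1, a receptor that NCAM1 can engage, was at 2.82 TPM or less in PC3 parental and 34.27 to 37.83 TPM in PC3 CE controls, and at 4.99 to 6.10 against 48.68 to 55.10 TPM in LNCaP. ST8SIA4, a polysialyltransferase, fell in PC3 and rose in LNCaP, where limma on TPM did not call it (adjusted p of 0.107 and 0.0831).

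**Figure D4:**
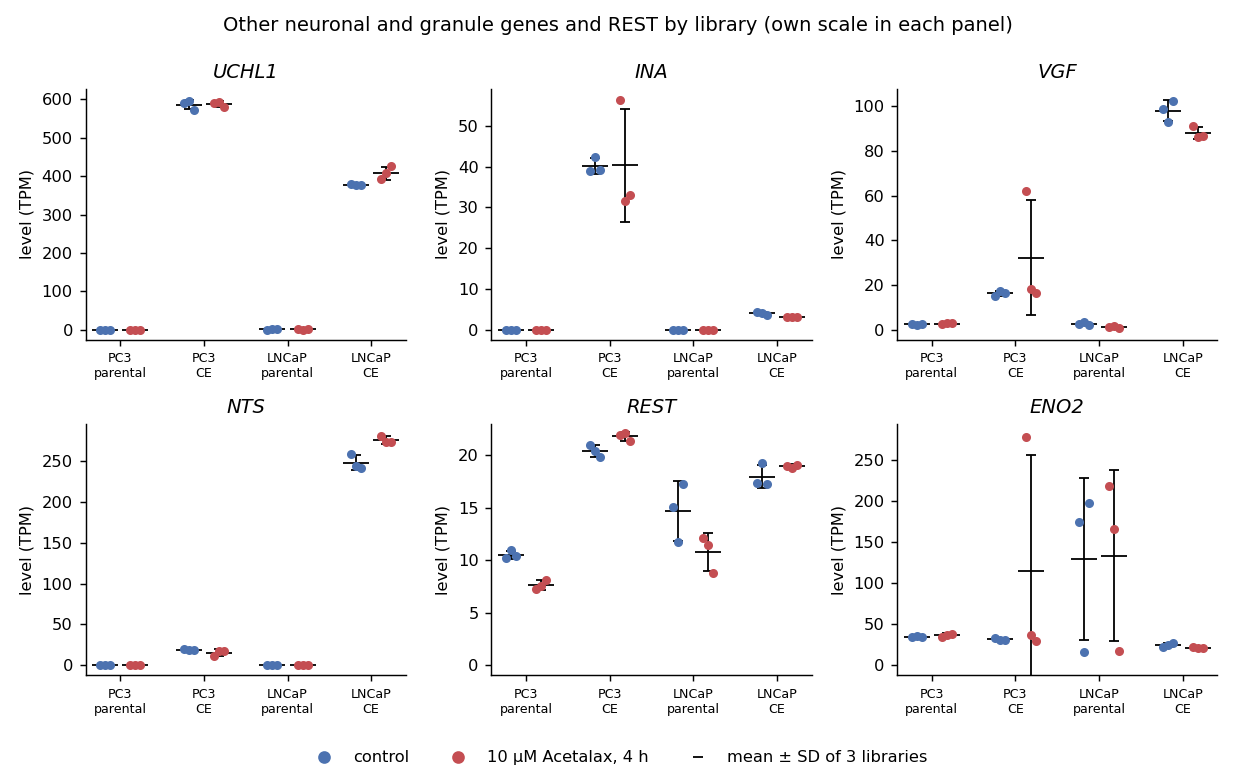
Level in TPM (vertical axis, its own scale per panel) of UCHL1, INA, VGF, NTS, REST and ENO2 in parental and CE cells of each line. Points are single libraries, blue for controls and red for Acetalax, and bars are mean ± SD of 3 libraries. UCHL1 lies at 376.91 TPM or more in all CE controls, while ENO2 splits within groups, with 16.14 TPM in 1 LNCaP parental control and 278.43 TPM in 1 PC3 CE library with Acetalax.

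With Acetalax, between 0 and 3 genes per list were called in each direction. The count of 3 was in the REST complex of PC3 parental cells, where 3 of 10 tested fell (SIN3A, REST and HDAC2), beside 4.31% of all genes called lower. The HDAC2 call (log2 -0.30, adjusted p = 0.0487) was lost in 11 of 14 alternatives, among them leaving out any 1 of the 6 libraries compared. In the other lists 0 or 1 fell and 0 to 2 rose in any cell kind, of 6 to 31 tested. Over all genes, 3.34% to 4.67% were called higher and 3.47% to 4.41% lower in these comparisons. Several of the list calls were lost in many alternatives, such as CPE in LNCaP CE cells (10 of 14). In PC3 parental cells SIN3A, a corepressor of REST, fell with it (log2 -1.11 ± 0.16, adjusted p = 0.00236). PCSK1N, a convertase inhibitor, rose there (log2 0.79 ± 0.14, adjusted p = 0.00547). In LNCaP parental cells VGF (log2 -0.96 ± 0.20, adjusted p = 0.0126) and SYT4 (log2 -0.63 ± 0.12, adjusted p = 0.00732) fell, and both calls were lost when only the libraries compared were fitted (adjusted p of 0.208 and 0.103). The vesicle fusion protein VAMP2 rose in LNCaP parental (log2 0.47 ± 0.10, adjusted p = 0.0131) and LNCaP CE cells (log2 0.39 ± 0.10, adjusted p = 0.0361). Its parental call was lost without Acetalax 1 (adjusted p = 0.0544) or 2 (0.0578), with only the libraries compared (0.165) and in limma (0.0648 and 0.0725), and its CE call without any 1 of the 6 libraries compared (0.0524 to 0.149).

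The members were also compared with all 21955 genes by the Pearson correlation of log2(TPM + 1) over the 24 libraries, given as a description because the libraries fall into 4 cell kinds. CHGA and CHGB were close to each other (r = 0.988), whereas SYP correlated with CHGA at 0.716 and with SYT1 at 0.456. INA (0.995) and GPX7 (0.993) were nearest to CHGA, and TYRP1 (0.996) and SLC10A4 (0.996) nearest to CHGB. TYRP1 is a pigment enzyme of melanocytes, at 380 ± 9.82 TPM in PC3 CE and 20.9 ± 1.85 TPM in LNCaP CE controls (SD, n = 3), while the melanocyte markers MLANA and SOX10 were at 0 in both. SLC10A4, a vesicle transporter of neurons and mast cells, was at a mean of 313 and 21.7 TPM in the same groups. For SYP the nearest were the corepressor CTBP2 (0.991), which shares its gene with the synaptic ribbon protein RIBEYE, and KDM2B (0.987). TLE4 (0.972) and GLT8D2 (0.971) were nearest to SCG2. The low and scattered values of SYT1 and SCG3 gave weaker neighbours, AC139426.1 (0.809) and SPART-AS1 (0.807) for SYT1, and AC104407.1 (0.884) and SLC12A1 (0.869) for SCG3.

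The nearest protein-coding genes on each side of the members were taken by position. Of these 18 genes, 15 were tested in PC3, with 6 higher and 7 lower in CE controls, and 16 in LNCaP, with 5 higher and 7 lower. Over all genes 38.5% were called higher and 39.0% lower in PC3, and 36.0% and 39.3% in LNCaP, so these counts are near the background. ITPK1, 1.62 kb from CHGA on chromosome 14, was lower in PC3 (log2 -0.47 ± 0.10) and LNCaP (log2 -0.86 ± 0.08). PRICKLE3, 1.28 kb from SYP on the X chromosome, was higher in PC3 (log2 0.98 ± 0.17) and LNCaP (log2 0.86 ± 0.11). DMXL2, a synaptic vesicle protein 58.5 kb from SCG3 on chromosome 15, was also higher in both (log2 1.70 ± 0.11 and 1.04 ± 0.17). TRMT6, 11.9 kb from CHGB on chromosome 20, was at a log2 difference of -0.02 ± 0.11 in PC3 and rose in LNCaP (log2 1.63 ± 0.22, adjusted p = 3.94e-05).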

How the data were processed

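Per the labels' protocols, poly(A) RNA went into a directional library kit and was sequenced from paired ends on an Illumina instrument, as 1 batch. The submitters' processing notes name FastQC, STAR 2.7, RSEM and GRCh38. The strand setting of the counting is not given in the sources used here. The authors deposited RSEM expected counts and TPM for 60660 features; 10.2% of the expected counts were not whole and were rounded before testing. Each of the tables has 1 column that belongs to no library, and it was not used. Levels are the deposited TPM. Positions are from GENCODE 29.

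Differences were tested with edgeR 4.0.16 (quasi-likelihood test, TMM scaling, filterByExpr at a minimum count of 10, adjusted p under 0.05 after Benjamini-Hochberg over all genes; limma 3.58.1, DESeq2 1.42.0, R 4.3.3), with 12 libraries per line or all 24 across lines, and checked on simulated data. The simulation left out genes of low mean count and used a fixed spread, with no silent group and no library that stood apart. It therefore does not cover such cases. Standard errors come from the fold change and its F value. Counts of replicates were compared by chi-square, and its ratio to the degrees of freedom, 3.43 to 263, exceeded what sampling gives. A group at 0 was set to 3 counts over the group, the 95% limit. Intervals cover counting error only.

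The members and lists were chosen with earlier results of these data known. Named genes were all members, up to 3 called genes per direction, list and comparison, with REST, SRRM4, ENO2, PCSK1 and CPE in any case, and the 2 genes most correlated with each tested member. Some results within these lists are not reported here. The flanking genes and the libraries left out were chosen after seeing the data.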

Additional observations from a re-analysis of the deposited data

Results flagged for a closer look

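The CE difference of SCG2 was larger in LNCaP than in PC3 by 3.42 on the log2 scale, and that of SYP was smaller there, at -0.98. Both were flagged because the difference between the lines itself passed the test (edgeR, adjusted p of 2.26e-05 and 0.00132). The SCG2 value rested on 6 counts in LNCaP parental controls. SCG2 levels of the CE controls overlapped between the lines (log2 0.35 ± 0.30, edgeR, adjusted p = 0.377), while parental controls differed (log2 -3.06 ± 0.46). The SYP difference between lines was not called by limma on log2(TPM + 1), at -0.35 with an adjusted p of 0.106. REST was flagged for the same kind of test: its Acetalax response in CE minus parental cells was 0.68 in PC3 and 0.66 in LNCaP, and its CE difference in LNCaP minus PC3 was -0.51 (adjusted p = 0.00217).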

How the results depend on the processing

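Over the alternatives, 859 values of single members kept their direction of call or their side of the threshold, 7 lost a call, 14 gained one, and none was reversed. The count of members called in LNCaP parental cells with Acetalax was 1, and 0 with no low-count filter, with the replicate block and with only the libraries compared, and 0 to 1 when single libraries were left out. The LNCaP difference of responses had 0 members called and 1 without the 2 libraries that stood apart. LNCaP against PC3 parental controls had 2, and 1 with only the libraries compared. The difference of the CE changes had 2, and 4 with limma on log2(TPM + 1) and 5 with limma on log2(TPM + 0.1), where CHGA, CHGB and SCG3 were called although parental levels were at or near 0. Every other count of members stayed within 1.5 times its main value. The cause was not tested. The median over all genes of the CE change in LNCaP minus PC3 was -0.13 with TMM scaling and 0.00 in DESeq2. Replicate numbers did not pair the samples (correlations of deviations -0.70 to 0.55, 1 of them over 0.1), and with the replicate block SYP in LNCaP parental cells with Acetalax had an adjusted p of 0.0625 and SCG3 between CE controls one of 0.0159. Counts of all genes called for Acetalax moved by over 1.5 times over the alternatives: 1564 in PC3 parental (573 to 5590), 1633 in PC3 CE (224 to 3358), 1639 in LNCaP parental (154 to 5280) and 1436 in LNCaP CE cells (541 to 7884). The differences of responses had 1610 in PC3 (758 to 4594) and 249 in LNCaP (55 to 3837). NCAM1, INSM1 and NEUROD1 were limited by depth, at 0 to 15 counts per group.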
